A study of Mus musculus with 10 samples.

Results

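The genes of the 4 Hox clusters were examined in muscle stem cells (MuSCs) that lacked Kmt5b. The members were chosen by symbol, as every gene of the deposited peak tables whose name starts with Hoxa, Hoxb, Hoxc or Hoxd, antisense and opposite-strand transcripts included. The table for histone H4 monomethylated at lysine 20 (H4K20me1) listed 9 such genes with 11 peaks, out of 14565 genes and 44925 peaks. The table for RNA polymerase II phosphorylated at serine 2 (Pol II S2P, the elongating form) listed 8 with 22 peaks, out of 11251 genes and 51322 peaks. Together these were 14 genes, of which Hoxa10, Hoxc4 and Hoxc5 were in both tables. GENCODE M21 annotates 39 coding Hox genes and 6 antisense Hox transcripts. No antisense transcript was listed, and a coding gene can lie inside a peak without being listed, because each peak is credited to at most 1 gene. The clusters were therefore also read peak by peak.

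The cells were satellite cells of mice that carry a tamoxifen-inducible Cre recombinase under control of Pax7, which limits recombination to cells that express Pax7. Control mice (Ctrl, Pax7CreERT/Suv4-20h1WT) and mutant mice (sKO, Pax7CreERT/Suv4-20h1KO) both carried this Cre, and mice received tamoxifen at 8 to 12 weeks of age. Suv4-20h1 is the older name of Kmt5b, a methyltransferase that adds the second methyl group to H4K20. MuSCs were purified from limb and trunk muscle, cultured and mapped by CUT&RUN, a method that sequences the DNA fragments cut out by a nuclease tethered to a bound antibody. There were 2 biological replicates per genotype and antibody, 8 libraries in all, and 2 IgG libraries that were not analysed here.

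Hox genes encode homeodomain transcription factors that give cells along the body axis their positional identity. In each cluster the genes stand in the order in which they are used, from anterior genes (paralogue groups 1 to 4) through central genes (5 to 8) to posterior genes (9 to 13). Polycomb complexes keep clusters silent and Trithorax complexes keep them active, and adult muscle cells retain a Hox code that reflects where in the body they arose.

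A value is a deposited score, the spike-in normalised coverage of a peak, and a gene's value is the sum over its peaks. Summed over all peaks, H4K20me1 came to 15218720 and 20432644 for Ctrl, against 32194136 and 35046570 for sKO. For Pol II S2P, the Ctrl totals were 3257665 and 4243685, against 4885638 and 3435908 for sKO. The scores do not show the depth in reads, and the read numbers that the study gives were not used here. A difference in scale between libraries enters every gene alike, so changes are given on the deposited scale and after the libraries were set to equal totals. At Kmt5b itself the Pol II S2P scores overlapped between genotypes (24 and 62 in Ctrl, 48 and 22 in sKO), so they give no check of the deletion. Pol II S2P peaks were found at 6 of 8 satellite cell and myoblast markers, Pax7 and Myod1 among them but not Myf5 or Cdh15, against 1 of 5 fibro-adipogenic, 2 of 4 endothelial, 2 of 4 immune and 2 of 4 Schwann cell markers. By comparison, 50% of the 20807 autosomal protein-coding genes were touched by a Pol II S2P peak, whether or not it was listed with them. The marker counts were not tested against that share. The endothelial genes with a peak were Pecam1 and Tek, the immune genes Cd68 and Csf1r, and the Schwann cell genes Sox10 and S100b. Cd68 scored 863 and 952 in Ctrl and 1308 and 840 in sKO. Myod1 scored 1329 and 1110 in Ctrl and 887 and 649 in sKO. No Pol II S2P peak was listed with Pdgfra, Cdh5 or Ptprc. The fibro-adipogenic gene was Col1a1, with 1093 and 16 in Ctrl and 75 and 31 in sKO, and the part of other cells in the Hox values was not tested.

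The clusters differed in how the peaks lay on them. HoxB (chr11:96194316-96368256, plus strand) spans 173.9 kb with 10 coding genes, and 90.2% of the span was covered by 2 H4K20me1 peaks. HoxD (chr2:74668310-74765142, plus strand) spans 96.8 kb with 9 coding genes, and 2 peaks covered 99% of it. HoxC (chr15:102921103-103036852, plus strand) spans 115.8 kb with 9 coding genes, and 7 peaks covered 72.6%. HoxA (chr6:52155590-52260880, minus strand) spans 105.3 kb with 11 coding genes, and 5 peaks covered only 37.6%. All coordinates are GRCm38, and a span runs between the outermost coding Hox genes.

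Pol II S2P peaks showed the opposite layout. HoxA held 16 and HoxC held 19, whereas no Pol II S2P peak, listed with any gene or none, touched the HoxB or the HoxD span. The nearest lay 118.1 kb and 39.7 kb outside HoxB, and 251.0 kb and 840.5 kb outside HoxD. An absent peak says only that the authors' caller found none there, not that the genes were untranscribed.

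**Figure D1:**
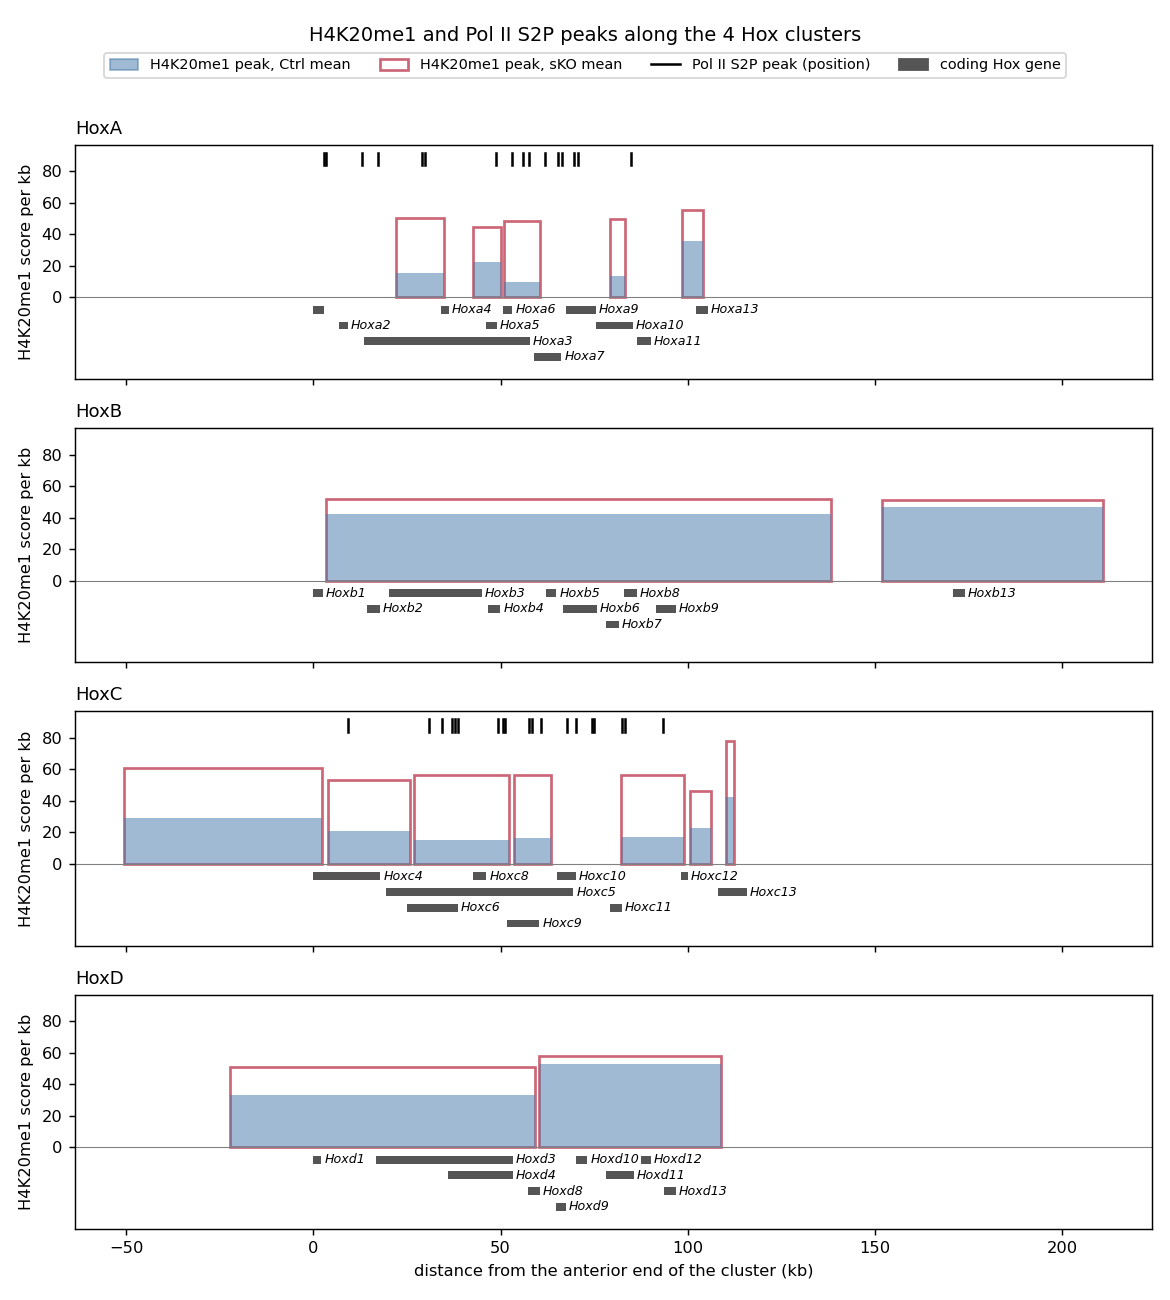
Peaks along the 4 clusters, by distance in kb from the end that carries the anterior genes. Filled bars give the mean Ctrl and outlined bars the mean sKO H4K20me1 score per kb of peak (n = 2 each), ticks mark Pol II S2P peaks and grey bars the coding genes. HoxB and HoxD each carry 2 broad H4K20me1 peaks and no tick, and HoxA and HoxC carry 5 and 7 H4K20me1 peaks beside 16 and 19 ticks.

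Gene by gene, 9 of 10 coding HoxB genes and 8 of 9 coding HoxD genes lay wholly inside H4K20me1 peaks. The exceptions were Hoxb1, which no peak touched, and Hoxd8, which spans the short gap between both HoxD peaks and was 70% covered. In HoxA the only wholly covered gene was Hoxa5, and in HoxC it was Hoxc8. Hoxa2, Hoxa9, Hoxa11 and Hoxc10 were among the genes with no H4K20me1 peak at all.

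A Pol II S2P peak touched 7 of 11 coding HoxA genes and 6 of 9 coding HoxC genes. Over all 39 coding Hox genes this was 13, or 33.3%, beside 50% of the 20807 autosomal protein-coding genes and 33.1% of those shorter than 10 kb. Of the 19 coding Hox genes wholly inside H4K20me1 peaks, 1 carried a Pol II S2P peak (5.26%), namely Hoxa5. Among all autosomal protein-coding genes wholly inside such peaks the share was 56.7%, and among those under 10 kb it was 44.5%. The Hox genes share a few peaks and are not independent of each other, so these shares are a description.

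By position, Pol II S2P peaks touched 3 of 12 anterior, 5 of 11 central and 5 of 16 posterior coding genes. Hoxa3, Hoxa5, Hoxa6 and Hoxa7 were among them in HoxA, and Hoxc4, Hoxc5, Hoxc6, Hoxc9, Hoxc10 and Hoxc11 in HoxC. The gene models of Hoxa3 and Hoxc5 (49.99 kb) run across several neighbours, so a peak that touches them need not be theirs.

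The H4K20me1 peak credited to Hoxb3 (ENSMUSG00000048763, an anterior gene of the hindbrain and neck) was the longest in any Hox cluster. It ran over 134800 bases, chr11:96230000-96364799, and took in all genes from Hoxb9 to Hoxb2. Among 41008 autosomal H4K20me1 peaks, 101 were longer. Its score was 5046 and 6323 in Ctrl and 6652 and 7300 in sKO. Neither sKO library fell below a Ctrl library, but the gap between the nearest of them was small beside the spread within Ctrl. The fitted change was 0.30 ± 0.29 (log2, SE), at a limma adjusted p of 0.303, so Hoxb3 was not called. The other HoxB peak was credited to Ttll6, a neighbour that encodes a tubulin glutamylase, and enclosed Hoxb13. It scored 2149 and 3371 in Ctrl and 2968 and 3097 in sKO, and the groups overlapped.

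Hoxd11 and Hoxd3 carried the peaks of HoxD. Hoxd11 (ENSMUSG00000042499), a posterior gene of the limb and the sacral spine, lent its name to a peak of 48600 bases, chr2:74656200-74704799, that reached from beyond Hoxd13 to Hoxd8. Its score was 2092 and 3052 in Ctrl and 2680 and 2973 in sKO. The groups overlapped, and the change was 0.16 ± 0.28 (log2, SE, limma adjusted p 0.574). Hoxd3 (ENSMUSG00000079277), an anterior gene of the cervical vertebrae, was credited with the remaining 81600 bases, chr2:74705800-74787399. It scored 2187 and 3221 in Ctrl and 3982 and 4307 in sKO. Here the groups did not overlap and the gene was called higher in sKO, by 0.64 ± 0.28 (SE, limma adjusted p 0.0265). Without Ctrl replicate 1 the change was 0.36 and the call was lost, as it was without sKO replicate 1 (0.70) or sKO replicate 2 (0.59).

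Of the 4 HoxC genes, Hoxc4, Hoxc5 and Hoxc12 had lower Ctrl scores per kb (26.5, 15.6 and 17.1) than the genes of HoxB and HoxD, and Hoxc13 (42.2) did not. Hoxc5 (ENSMUSG00000022485, a central gene) scored 359 and 742 in Ctrl and 1911 and 2067 in sKO over 2 peaks of 35.2 kb in sum. Each sKO value was well above each Ctrl value, and Hoxc5 was called higher by 1.94 ± 0.27 (SE, limma adjusted p 1.97e-11), the highest fold change among the 9 genes. Hoxc12 (ENSMUSG00000050328, a posterior gene) scored 142 and 440 in Ctrl and 830 and 1097 in sKO, and was called higher by 1.93 ± 0.27 (SE, limma adjusted p 4.31e-11). The Ctrl libraries differed from each other by a larger factor than Ctrl replicate 2 did from either sKO library. Without Ctrl replicate 1 the fold change of Hoxc12 was 1.12 and without Ctrl replicate 2 it was 2.74, and the call held in both cases. Hardly any of that peak lies in Hoxc12, and it runs on to the start of Hoxc11.

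Hoxc4 (ENSMUSG00000075394), the most anterior HoxC gene, scored 1808 and 2155 in Ctrl and 4151 and 4622 in sKO. Hoxc4 was called higher, by 1.15 ± 0.28 (SE, limma adjusted p 9.39e-05), and the call was lost without sKO replicate 1 (1.23) or sKO replicate 2 (1.07). One of its 2 peaks, of 52800 bases, reaches far beyond the anterior end of the cluster. Hoxc13 (ENSMUSG00000001655), the most posterior gene and a regulator of hair and nail, had a peak of only 2000 bases with 45 and 124 in Ctrl and 120 and 192 in sKO. Hoxc13 was called higher (1.01 ± 0.42, SE, limma adjusted p 0.0190) although its groups overlapped, and without Ctrl replicate 1 the fold change was 0.29 and the call was lost. It was also lost without sKO replicate 2 (0.67), and without Ctrl replicate 2 the fold change was 1.73.

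HoxA had 2 listed genes. Hoxa10 (ENSMUSG00000000938, a posterior gene of the uterus and limb) had the lowest Ctrl level of the 9 genes per kb. It scored 49 and 60 in Ctrl and 199 and 198 in sKO. The replicates were close in both genotypes, and Hoxa10 was called higher by 1.85 ± 0.42 (SE, limma adjusted p 3.39e-05). Hoxa13 (ENSMUSG00000038203, a gene of the digits and the genital tubercle) scored 182 and 218 in Ctrl and 317 and 307 in sKO. Hoxa13 was called higher, by 0.64 ± 0.31 (SE, limma adjusted p 0.0403), and the call was lost without sKO replicate 1 (0.62) or sKO replicate 2 (0.67). Calls over all genes also fell without these libraries, from 12690 to 7392 and 5249. The 3 other HoxA peaks were credited to Gm28308, a gene model that runs across Hoxa3 to Hoxa6. Summed, they scored 509 and 413 in Ctrl and 1376 and 1525 in sKO, and Gm28308 was called higher by 1.66 ± 0.27 (SE, limma adjusted p 6.49e-09).

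**Figure D2:**
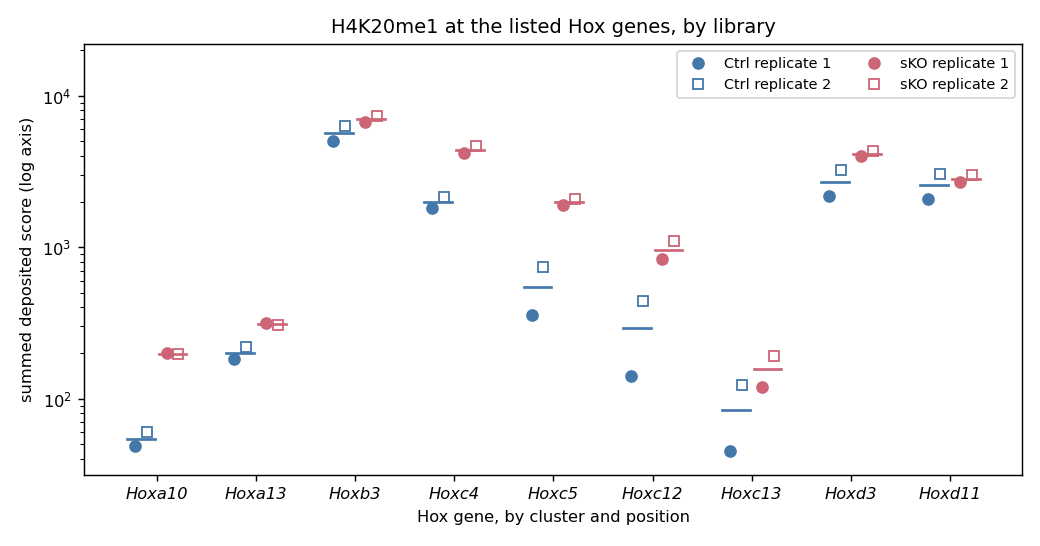
H4K20me1 score of each listed Hox gene in each library, on a log axis. Circles are replicate 1 and squares replicate 2, and lines are the mean of 2 libraries. The libraries of both genotypes lie close together at Hoxb3 and Hoxd11 and far apart at Hoxa10 and Hoxc5.

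On the deposited scale 7 of the 9 Hox genes were thus called higher in sKO and 0 lower. This is close to the background, since 92.3% of the 13750 autosomal genes tested were called higher and 0% lower, and 12421 genes had an unadjusted p under 0.05. The sKO libraries were both above the Ctrl libraries in 7 of 9 Hox genes and in 96.5% of all genes tested. The median log2 fold change was 1.01 over the Hox genes and 1.11 over all genes tested. Single Hox genes lay on either side of that median. Hoxd11 lay 0.95 and Hoxb3 0.81 log2 units under it (−0.95 and −0.81), with 151 and 342 of the 13750 genes showing a smaller change. Hoxc5, Hoxc12 and Hoxa10 lay 0.83, 0.82 and 0.74 above it.

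With equal library totals the median over all genes became 0.18. Hoxa10 (0.93), Hoxc12 (1.0) and Hoxc5 (1.01) were then called higher, with limma adjusted p-values of 0.0191, 2.16e-06 and 1.08e-11. Hoxb3 (−0.63) and Hoxd11 (−0.77) were called lower, at limma adjusted p-values of 1.47e-17 and 1.29e-15. Across all genes tested on this scale, 24.0% were called higher and 4.31% lower. Such small p-values rest on a variance that limma shares among all genes tested, with 2 libraries per genotype. Hoxc4 (0.22), Hoxc13 (0.09), Hoxa13 (−0.28) and Hoxd3 (−0.29) were not called. The study reports more H4K20me1 in MuSCs without Kmt5b, by Western blot and immunofluorescence. Equal totals removes any change common to all peaks. A gene called lower on this scale thus held a smaller share of the library total, which does not mean a lower deposited score.

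**Figure D3:**
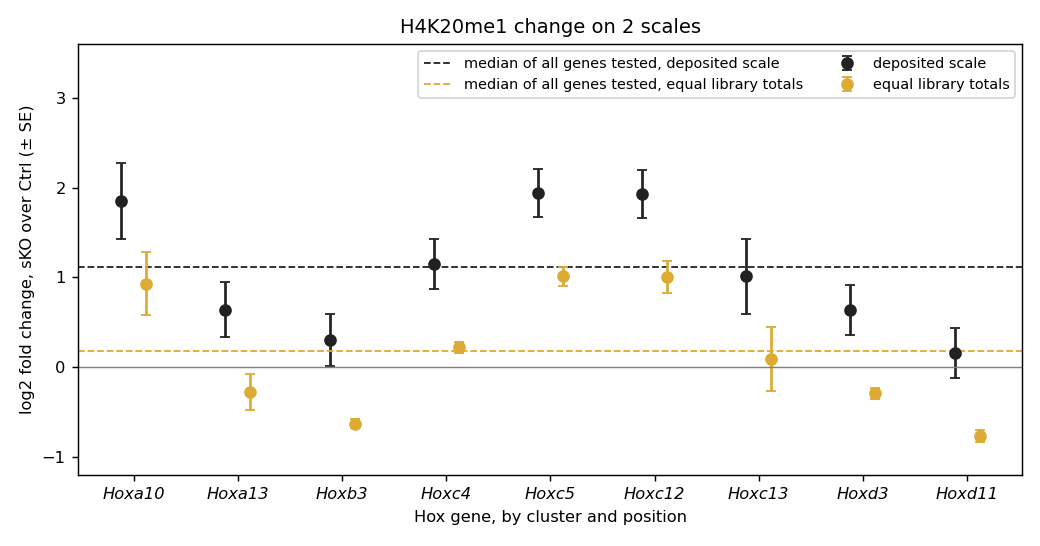
Log2 fold change of H4K20me1 (sKO over Ctrl, ± SE, n = 2 per genotype) at the listed Hox genes, on the deposited scale and with equal library totals. Dashed lines give the medians of all genes tested, 1.11 and 0.18. Hoxb3 and Hoxd11 are the lowest on both scales, and Hoxa10, Hoxc5 and Hoxc12 the highest.

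Read by peak, 13 of the 16 H4K20me1 peaks on the clusters were called higher on the deposited scale and 0 lower, beside 90.1% and 0.00244% of all autosomal peaks tested. The 3 peaks not called were both HoxB peaks and the Hoxd11 peak. With equal totals these 3 were called lower, beside 3.32% of all peaks, and 6 peaks of HoxA and HoxC were called higher, beside 25.8%. Fold changes were smaller at broad peaks in general. Among 2007 autosomal peaks of at least 50 kb the median log2 fold change was 0.81, with a lower quartile of 0.59, an upper quartile of 1.01 and a 5th percentile of 0.29. The Hox clusters hold 4 peaks of that length. The HoxB peak credited to Ttll6 stood at 0.17 and the peak of Hoxb3 at 0.30, the Hoxd3 peak lay between the quartiles at 0.64, and the long Hoxc4 peak was above them at 1.08. Of 2104 autosomal peaks at least as long as the shortest HoxB or HoxD peak, 25.4% held no Pol II S2P peak, and the 4 peaks of HoxB and HoxD were of that kind.

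The clusters moved toward each other in level. In Ctrl the mean score per kb of the 16 peaks ranged from 9.95 to 52.9, a factor of 5.32. In sKO it ranged from 44.7 to 78.0, a factor of 1.75. The upper end in sKO was the short Hoxc13 peak. Peaks were united over the libraries of both genotypes, so a peak low in Ctrl can be in the set through sKO alone. Such a choice of peaks widens the range in Ctrl and raises the lower end in sKO, and its part was not tested. The 4 peaks of HoxB and HoxD had a median of 44.4 per kb in Ctrl, against 18.9 for the 12 peaks of HoxA and HoxC. In sKO these medians were 51.5 and 54.5. Over all autosomal peaks the 90th percentile was 2.25 times the 10th in Ctrl and 1.46 times in sKO, so a narrower spread in sKO was not limited to Hox peaks. In the 16 Hox peaks the same ratio was 3.07 in Ctrl and 1.25 in sKO. The peak of Hoxd11 was above 99.8% of all autosomal peaks in Ctrl score per kb, and the Hoxb3 peak above 98.8%.

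**Figure D4:**
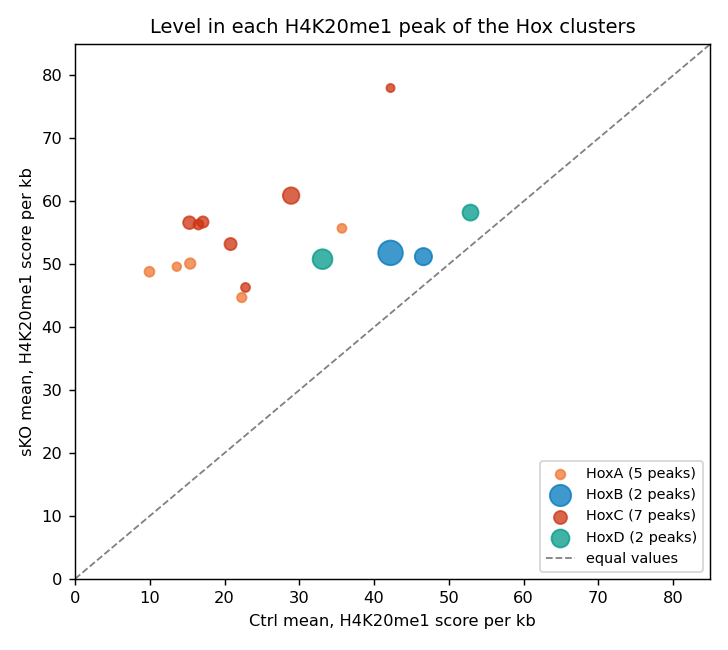
Mean H4K20me1 score per kb in sKO against Ctrl for each of the 16 peaks on the clusters, with point area growing with peak length. HoxA and HoxC peaks spread from 9.95 to 42.2 along the Ctrl axis, and HoxB and HoxD peaks lie nearest the line of equal values.

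The shift between clusters did not depend on the scale between libraries, since it can be read within each library. Here the score of a cluster is the sum of all peaks that touch its span, counted whole. HoxB held 49.1% and 47.8% of the H4K20me1 score of all 4 clusters in Ctrl and 37.8% and 37.2% in sKO. Its Ttll6 peak lies mostly outside the span. HoxC held 16.6% and 17.9% in Ctrl and 28.6% and 29.4% in sKO. Its sum was 2436 and 3634 in Ctrl and 7294 and 8215 in sKO. Of this, the long Hoxc4 peak, mostly outside the span, gave 1376 and 1674 in Ctrl and 2948 and 3482 in sKO. HoxA held 5.05% and 3.41% in Ctrl and 7.43% and 7.27% in sKO. The share of HoxD was 29.2% and 30.9% in Ctrl and 26.2% and 26.1% in sKO. The ratio of HoxC to HoxB was 0.339 and 0.375 in Ctrl and 0.758 and 0.790 in sKO. In each of these measures the genotypes did not overlap. Peaks low in Ctrl, as some of HoxA and HoxC were, can be in the set through sKO alone. Such a choice of peaks raises the share of their cluster in sKO, and its part was not tested. Broad peaks such as those of HoxB and HoxD changed less outside the Hox clusters too. Over all autosomal peaks tested, the median log2 fold change on the deposited scale was 1.25 at 5 to 10 kb and 0.81 from 50 kb. A shift of score away from broad peaks was thus not particular to the Hox clusters, and the part of peak length in these shares was not tested. With 2 libraries against 2 an exact two-sided permutation test cannot go below p = 0.333, and no test of these sums was run.

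The genes were also summed by their position within the cluster. Each peak counts here with the gene it is credited to, so the sums do not separate positions. The Hoxb3 peak also covers the central genes Hoxb5 to Hoxb8 and the posterior gene Hoxb9. The Hoxc5 peaks touch the posterior gene Hoxc9, and the Hoxd3 peak touches the central gene Hoxd8. The anterior genes (Hoxb3, Hoxc4, Hoxd3) had summed scores of 9041 and 11699 in Ctrl, against 14785 and 16229 in sKO, with a log2 ratio of 0.58. Those of the posterior genes (Hoxa10, Hoxa13, Hoxc12, Hoxc13, Hoxd11) were 2510 and 3894 in Ctrl, against 4146 and 4767 in sKO, with a log2 ratio of 0.48. The central group held Hoxc5 alone, and its log2 ratio was 1.85. Within the posterior group the single fold changes ran from 0.16 at Hoxd11 to 1.93 at Hoxc12, and within the anterior group from 0.30 at Hoxb3 to 1.15 at Hoxc4.

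Genes inside or flanking the clusters under another name were read in the same way, and they need not adjoin a cluster. Next to the posterior end of HoxD, Evx2, a homeobox gene of the limb, scored 644 and 967 in Ctrl and 875 and 923 in sKO. The groups overlapped there, at a log2 fold change of 0.19 with a limma adjusted p of 0.488. Ttll6, beyond the posterior end of HoxB, had 0.34 (limma adjusted p 0.245). One of its 2 peaks is the HoxB peak that encloses Hoxb13, so the values of Ttll6 in part repeat those of HoxB. At the posterior end of HoxA, Evx1 had 0.48 (limma adjusted p 0.0819) and was not called, and the long non-coding RNA Hottip was called higher by 0.84 (limma adjusted p 0.00230). Of the 11 listed genes of this kind with an H4K20me1 peak, 8 were called higher and 0 lower on the deposited scale. Over all genes tested these shares were 92.3% and 0%. With equal totals Evx2 and Ttll6 were called lower, beside 4.31% of all genes, and Snx10, Jazf1 and Calcoco1 higher, beside 24.0%.

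Pol II S2P asked whether elongating polymerase on the Hox genes differed between the genotypes. Hoxc5 carried most of the signal, with 11 peaks that scored 925 and 847 in Ctrl and 864 and 580 in sKO. The groups overlapped, and the log2 fold change was −0.32 ± 0.43 (SE, limma adjusted p 1). The strongest single peak, chr15:103001962-103002794, lies inside Hoxc6 as well and scored 242 and 202 in Ctrl and 178 and 128 in sKO. Hoxc10 (ENSMUSG00000022484, a posterior gene of the lumbar region and hindlimb) scored 178 and 148 in Ctrl and 133 and 122 in sKO. Both sKO libraries were below both Ctrl libraries there, and the fitted change was −0.35 ± 0.41 (log2, SE, limma adjusted p 1).

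In HoxA, Hoxa7 (ENSMUSG00000038236, central) scored 109 and 162 in Ctrl and 132 and 100 in sKO, with a log2 fold change of −0.21 ± 0.41 (SE). Hoxa9 (ENSMUSG00000038227, posterior, a regulator of blood stem cells and of aged muscle stem cells) scored 90 and 155 in Ctrl and 145 and 76 in sKO, with −0.17 ± 0.42 (SE). For both genes the replicates of 1 genotype lay farther apart than the genotype means, and the limma adjusted p was 1. A further 3 genes were under the minimum for testing. Hoxa10 scored 33 and 60 in Ctrl and 49 and 51 in sKO. Hoxc4 scored 33 and 30 in Ctrl and 46 and 27 in sKO. Hoxc11 (ENSMUSG00000001656) scored 50 and 27 in Ctrl and 21 and 19 in sKO.

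**Figure D5:**
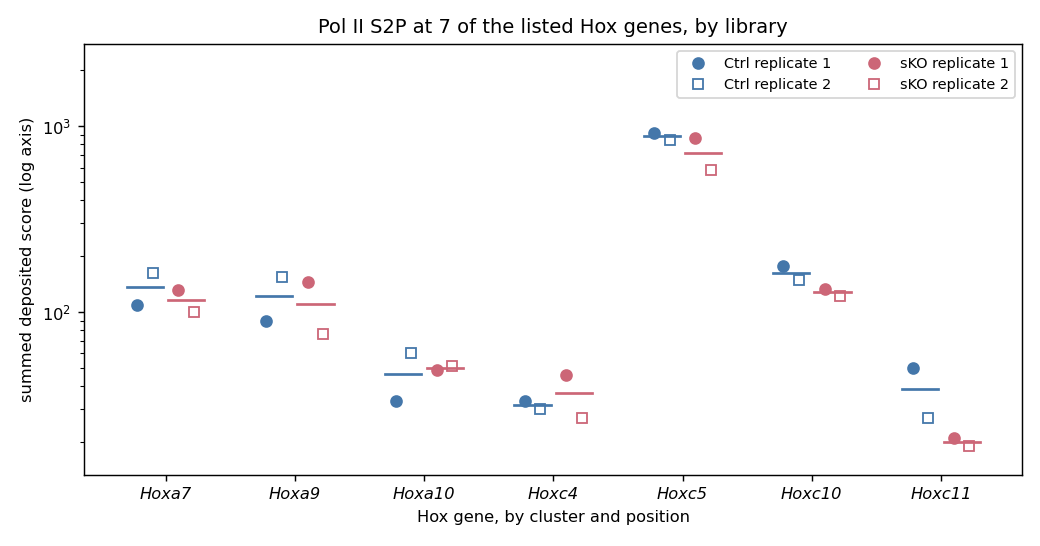
Pol II S2P score of 7 of the 8 listed Hox genes in each library, on a log axis. Circles are replicate 1 and squares replicate 2, and lines are the mean of 2 libraries. The genotypes are apart only at Hoxc10 and Hoxc11, where both sKO libraries are lower, and Hoxc5 has the highest scores.

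None of the 5 Hox genes tested was called for Pol II S2P. No other gene was either, at 0% higher and 0% lower of 8531 tested, while 100 genes had an unadjusted p under 0.05. The median log2 fold change of the 5 genes was −0.21 beside 0.09 over all genes. Of the 5, Hoxc10 alone had both sKO libraries below both Ctrl libraries, as did 4.52% of all genes tested, and 0 had both above, beside 9.41%. With equal totals the limma adjusted p of Hoxc5 was 0.0584 at a log2 fold change of −0.46, short of the limit of 0.5. The background on that scale was 1.26% higher and 0.855% lower. None of the 13 tested Pol II S2P peaks on the clusters was called on the deposited scale, where 0.0447% of all peaks were higher and 0.00447% lower. With equal totals the strongest Hoxc5 peak was called lower (−0.69, limma adjusted p 0.0493), beside 1.18% of peaks lower and 2.48% higher. As a share of the library, all listed Hox genes held 0.0453% and 0.0359% of Pol II S2P in Ctrl and 0.0300% and 0.0309% in sKO. These shares were not tested, and on the deposited scale no change of Pol II S2P on the Hox genes was called. In bulk cultures, a difference in the number of cells with polymerase and a difference in polymerase per cell could not be told apart.

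Pol II S2P and H4K20me1 peaks met in part of the clusters. Of the 16 Pol II S2P peaks of HoxA, 6 touched an H4K20me1 peak (37.5%), and of the 19 of HoxC, 15 did (78.9%), beside 64.4% of 50698 autosomal Pol II S2P peaks. The Pol II S2P peaks of Hoxa7, Hoxa9, Hoxa10 and Hoxc10 lay outside H4K20me1 peaks. Those of Hoxc5 were inside them, in 2 peaks whose H4K20me1 rose by 1.92 and 1.95 on the log2 scale.

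The sequence before a gene's start is shown for Hoxa7 and Hoxd11, 1 gene for each layout of the peaks. The start of Hoxa7 lay under a Pol II S2P peak, and 23% of the gene was in H4K20me1 peaks. Hoxd11 lay wholly inside an H4K20me1 peak and had no Pol II S2P peak. Both genes were chosen after their values were seen. Each sequence is the 150 bases before the annotated start on the gene's strand, 5′ to 3′, from the RefSeq copy of GRCm38, with every CpG dinucleotide in capitals. The windows are chr6:52221855-52222004 (minus) for Hoxa7 and chr2:74679407-74679556 (plus) for Hoxd11.
Hoxa7: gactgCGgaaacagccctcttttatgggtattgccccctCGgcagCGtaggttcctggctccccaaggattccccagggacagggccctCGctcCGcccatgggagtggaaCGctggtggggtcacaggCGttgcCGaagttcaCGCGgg
Hoxd11: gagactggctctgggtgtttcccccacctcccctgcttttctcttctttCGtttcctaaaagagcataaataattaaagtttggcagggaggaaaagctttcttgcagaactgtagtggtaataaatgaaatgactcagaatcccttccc

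Hoxa7 had 10 CpG dinucleotides and Hoxd11 had 1. The median was 9 over the 13 coding Hox genes with a Pol II S2P peak, 7.50 over the 26 without, and 6 over all 20807 autosomal protein-coding genes. Windows were also searched on both strands for TATAAA, the core of a TATA box, and for TGATNNAT, a form of the site that Hox and Pbx proteins bind together. Overlapping matches were counted separately, and the motifs have no match in common. TGATNNAT was found upstream of 6 of 39 coding Hox genes (15.4%) and of 3.22% of all genes. TATAAA was found upstream of 3 Hox genes (7.69%) and of 7.28% of all genes. Neither motif was found in the windows printed for Hoxa7 and Hoxd11. A match describes the letters only.

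Genes that act with or on Hox genes were read from 4 lists. Of the cofactors of the TALE class, which bind DNA together with Hox proteins, 8 of 8 tested were called higher in H4K20me1, with a median log2 fold change of 1.19. The highest were Meis1 and Meis3, both at 1.56. Of the Polycomb genes, 13 of 14 were called higher (median 0.91), led by Cbx7 (1.90), a reader of H3K27 methylation, and Phf19 (1.60). Of the Trithorax and MLL genes, 4 of 7 were called higher (median 0.56), led by Men1 (2.18), the gene of menin. Of the inducers of Hox transcription, 4 of 4 were (median 1.67), led by the retinoic acid receptor genes Rarg (2.05) and Rara (1.86). No gene was called lower in any list, and the share over all genes, 92.3%, stands beside these counts.

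With equal totals, 3 TALE, 2 Polycomb, 1 Trithorax and 3 inducer genes were called higher, and Kmt2a (−0.68) and Dot1l (−0.88) were called lower. Over all genes tested the shares on this scale were 24.0% higher and 4.31% lower. Kmt2a encodes a histone methyltransferase that maintains Hox expression, and Dot1l an H3K79 methyltransferase. For Pol II S2P, 0 of 6 TALE, 0 of 12 Polycomb, 0 of 8 Trithorax and 0 of 4 inducer genes were called on the deposited scale. Of all 8531 genes tested there, 0% were called higher and 0% lower. With equal totals Rarb was called higher, with 125 and 187 in Ctrl and 526 and 319 in sKO and a log2 fold change of 1.28.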

How the data were processed

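CUT&RUN for H4K20me1 (Abcam ab9051) and Pol II S2P (Abcam ab5095) was carried out on cultured MuSCs, with S2 cell DNA as spike-in. The authors trimmed reads with Trimmomatic 0.39, aligned them to GRCm38 (mm10) with STAR 2.7.3a, discarded alignments that were not unique, and removed duplicates with Picard 2.21.7. The submitters' processing notes also name FastQC 0.11.8, SICER 0.0.41 and MACS2 2.1.1. Each deposited value is a score, a whole number per union peak and library that stands for coverage normalised to the spike-in, and it was not treated as a read count. Peaks were united over the libraries of an antibody, so they are not called per sample. The deposited fraction gives how much of a peak overlaps the 1 gene it is listed with, and that column was used only to leave out peaks that lay mostly outside their gene.

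Scores were summed by gene identifier and compared with limma 3.58.1 in R 4.3.3 (lmFit, and eBayes with trend, two-sided) on log2(score + 1), with 2 libraries per genotype and the scores otherwise as deposited. The pseudocount makes fold changes of low scores too small. All autosomal genes or peaks with a mean over 50 were fitted together. A call needed a p under 0.1 after Benjamini-Hochberg adjustment together with a log2 fold change beyond 0.5 in either direction, which follows the study's limits. Equal totals means that the libraries of an antibody were scaled to the same sum over all peaks, the X chromosome included, which removes by construction any change common to all peaks. Every Hox gene with a peak could be named. Of the pathway lists at most the 2 genes with the largest called change in each direction per antibody were named. The members and lists were chosen with earlier results of these data known. The coordinates of the listed genes were the same in GENCODE M21 in 17 of 17 cases. Scripts were tested on simulated data. Tables and figures were made with Python 3.11.15, pandas 2.3.3, NumPy 2.4.6 and matplotlib 3.10.9. The alternatives tried were other scalings, pseudocounts and filters, a fit without trend, a replicate block, each library left out, and other rules for assigning peaks. The IgG libraries were not analysed here, and the values of 1 listed gene and some upstream sequences are not reported here.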

Additional observations from a re-analysis of the deposited data

How the results depend on the processing

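The scale between libraries decided most calls on H4K20me1. Against 7 Hox genes called higher and 0 lower, equal totals gave 3 and 2, quantile normalisation 2 and 3, and median ratio scaling 3 and 3. On the 16 peaks (13 higher, 0 lower) they gave 6 and 3, 5 and 3, and 6 and 4. With only peaks that lie mostly in their gene, 4 genes were called higher, since fewer genes could be tested. Leaving out 1 library at a time gave 3 to 7 genes and 8 to 13 peaks called higher. The lowest gene counts, 4 and 3, came without sKO replicate 1 and without sKO replicate 2, and the lone library was then assumed to vary like the others. Reversed fold changes under equal totals, quantile normalisation and median ratio were −0.28, −0.67 and −0.50 for Hoxa13, −0.63, −0.55 and −0.84 for Hoxb3, −0.77, −0.78 and −0.99 for Hoxd11, and −0.29, −0.26 and −0.50 for Hoxd3. Hoxc13 reversed under quantile normalisation (−0.50) and median ratio (−0.12). Hoxa10 kept its direction under quantile normalisation, but at 0.36 it was under the limit of 0.5 and not called. Hoxc5 (0.84) and Hoxc12 (0.69) stayed above that limit. Leaving out single libraries gave −0.11 (without Ctrl replicate 1) to 0.43 for Hoxd11. The log2 ratios of the cluster sums were 1.0 for HoxA, 0.30 for HoxB, 1.37 for HoxC and 0.40 for HoxD, and equal totals moved them to 0.08, −0.63, 0.46 and −0.50. Over all peaks in the span HoxA reached 1.45. Without single libraries the ratios ran from 0.88 to 1.14 for HoxA, 0.14 to 0.47 for HoxB, 1.11 to 1.67 for HoxC and 0.15 to 0.70 for HoxD.

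For Pol II S2P there were 0 calls. Without single libraries the fold changes ran from −0.49 to 0.08 for Hoxa7 and −0.63 to 0.29 for Hoxa9, and the log2 ratios of the sums from −0.40 to 0.31 for HoxA and −0.58 to −0.07 for HoxC. Equal totals and median ratio scaling each called 1 Hox peak lower. For the pathway lists, equal totals gave 9 H4K20me1 calls higher and 2 lower against 29 and 0, and 1 Pol II S2P call higher against 0. Where a value moved, the cause was not tested unless the setting itself shows it.

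Replicate numbers are shared between the genotypes, but nothing says that they pair the libraries. The correlation of the replicate differences between genotypes was 0.041 over 13750 genes for H4K20me1 and −0.043 over 8531 genes for Pol II S2P. With the replicate number as a block, 7 Hox genes were called higher and 0 lower in H4K20me1, 0 in Pol II S2P, and the peaks called numbered 13 and 0. No call on a single Hox gene changed with the block, and it was not applied to the pathway lists. Over all Pol II S2P peaks, 10 were called higher and 1 lower without the block and 0 with it. Over all H4K20me1 genes 12718 were called higher with the block and 12690 without.

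The limits are these. There were 2 libraries per genotype, the scores do not show the depth in reads, and no spike-in read numbers were used, so the deposited scale could not be checked. Peaks credited to 1 Hox gene cover up to 8 coding Hox genes, and single genes inside HoxB and HoxD cannot be told apart.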
